A study of Mus musculus with 8 samples.

Results

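The genes of oxidative phosphorylation that are encoded in the nucleus were followed by the accessibility of the chromatin at their ends. The set held 59 genes: 31 for subunits of complex I, 4 for complex II, 8 for complex III, the cytochrome c gene, 10 for complex IV and 5 for complex V. A peak was assigned to a gene where its centre was within 1 kb of either end of the gene span in assembly GRCm38.p6. By this rule 71 of the 134407 peaks were found at 52 of the 59 genes, and 69 of the 71 were strong enough to be tested.

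Complex I (NADH dehydrogenase) and complex II (succinate dehydrogenase) pass electrons to ubiquinone, complex III (the cytochrome bc1 complex) passes them on to cytochrome c, and complex IV (cytochrome c oxidase) passes them to oxygen. The resulting proton gradient across the inner mitochondrial membrane drives ATP synthesis by complex V. Most subunits are made from nuclear genes and imported, and mTOR signalling is known to act on mitochondrial function in proliferating cells, embryonic stem cells among them.

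ATAC-seq, which inserts sequencing adapters into open chromatin with the Tn5 transposase, was carried out on wild-type E14 mouse embryonic stem cells. The control group had 4 libraries and the paused group had 4. All cells were grown on gelatin in medium with fetal bovine serum and LIF. The paused cells also received INK128, which inhibits the mTOR kinase, at 200 nM for 24 hours, which brings about a state modelled on the pausing of early embryos. Each library was made from 50000 live cells of this 1 line. The labels do not say that replicates were separate cultures, so that p-values measure only the spread between these samples.

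A value here is the number of reads in a peak of 201 bp divided by 1 factor per sample. Reads in peaks ranged from 4434037 to 21161767 per library, and control replicate 1 was the deepest. The median peak held 91 reads in that library and 18 to 29 in the other 7. Changes are differences of log2(value + 1), paused minus control, with p-values from limma-trend adjusted over 127402 peaks, those whose mean value reached 10. In these bulk libraries, fewer cells with an open site and less opening per cell cannot be told apart.

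Promoter sequences are shown for the member genes whose peaks were called and for the strongest peak of each complex, where a listed start site and at least 1 motif match were found. Each runs from 250 bases before to 50 bases after the start site of the gene, 5′ to 3′ on the strand of the gene, from RefSeq on GRCm38.p6. Capitals mark matches on either strand to GCGCA and GCGC with any base between them (NRF1), CCGGAAG (the core bound by ETS factors and GABPA), AAGATGGC (YY1), GGGCGG (SP1 and KLF factors), TGACGTCA (CREB and ATF factors) or AAGGTCA (a single recognition site of ESRRA). These factors are known to act at promoters of respiratory genes, and a match describes letters only. Positions count from 1 at the first transcribed base.
Ndufs8 (chr19:3912725-3913024, minus strand): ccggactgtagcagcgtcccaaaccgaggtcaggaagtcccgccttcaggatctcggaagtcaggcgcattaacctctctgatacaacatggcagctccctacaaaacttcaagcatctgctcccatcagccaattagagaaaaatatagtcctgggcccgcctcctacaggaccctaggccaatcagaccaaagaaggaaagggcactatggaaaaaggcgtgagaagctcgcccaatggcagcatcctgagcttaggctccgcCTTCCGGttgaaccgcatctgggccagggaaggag
Ndufv3 (chr17:31519865-31520164, plus strand): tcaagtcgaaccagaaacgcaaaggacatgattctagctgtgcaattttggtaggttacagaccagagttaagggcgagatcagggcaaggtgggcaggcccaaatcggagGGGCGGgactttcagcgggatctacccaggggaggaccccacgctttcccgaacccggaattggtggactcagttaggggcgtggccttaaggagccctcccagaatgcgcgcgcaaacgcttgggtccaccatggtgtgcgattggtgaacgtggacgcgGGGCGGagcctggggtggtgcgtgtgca
Ndufa9 (chr6:126849095-126849394, minus strand): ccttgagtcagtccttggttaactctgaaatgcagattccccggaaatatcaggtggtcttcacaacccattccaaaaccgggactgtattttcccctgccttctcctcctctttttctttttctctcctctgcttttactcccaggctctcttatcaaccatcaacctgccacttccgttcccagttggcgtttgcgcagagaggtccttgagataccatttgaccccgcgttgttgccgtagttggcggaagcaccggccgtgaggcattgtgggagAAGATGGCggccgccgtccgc
Ndufb6 (chr4:40279372-40279671, minus strand): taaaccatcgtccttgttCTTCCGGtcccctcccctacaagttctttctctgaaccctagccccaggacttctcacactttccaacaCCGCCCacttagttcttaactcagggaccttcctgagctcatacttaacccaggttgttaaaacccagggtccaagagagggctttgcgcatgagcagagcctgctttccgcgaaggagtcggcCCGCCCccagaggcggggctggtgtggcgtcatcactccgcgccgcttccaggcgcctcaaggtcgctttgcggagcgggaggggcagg
Sdhb (chr4:140961021-140961320, plus strand): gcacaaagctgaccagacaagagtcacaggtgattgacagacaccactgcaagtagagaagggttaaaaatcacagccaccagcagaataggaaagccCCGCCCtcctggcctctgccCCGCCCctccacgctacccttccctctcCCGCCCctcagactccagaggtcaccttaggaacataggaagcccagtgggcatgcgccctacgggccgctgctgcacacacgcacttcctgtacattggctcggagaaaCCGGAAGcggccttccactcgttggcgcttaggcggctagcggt
Uqcrc1 (chr9:108936398-108936697, plus strand): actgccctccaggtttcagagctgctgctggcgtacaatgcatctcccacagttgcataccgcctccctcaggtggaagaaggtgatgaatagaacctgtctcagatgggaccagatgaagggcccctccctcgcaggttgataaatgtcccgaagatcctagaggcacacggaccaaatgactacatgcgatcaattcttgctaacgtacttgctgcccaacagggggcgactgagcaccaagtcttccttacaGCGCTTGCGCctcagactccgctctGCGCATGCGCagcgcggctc
Cycs (chr6:50566520-50566819, minus strand): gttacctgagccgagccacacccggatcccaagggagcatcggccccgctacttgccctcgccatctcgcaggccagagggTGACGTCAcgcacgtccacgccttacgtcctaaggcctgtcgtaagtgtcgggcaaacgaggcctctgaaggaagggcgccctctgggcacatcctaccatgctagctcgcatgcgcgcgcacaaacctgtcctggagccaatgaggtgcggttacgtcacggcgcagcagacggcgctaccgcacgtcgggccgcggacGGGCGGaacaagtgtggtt
Cox8a (chr19:7217567-7217866, minus strand): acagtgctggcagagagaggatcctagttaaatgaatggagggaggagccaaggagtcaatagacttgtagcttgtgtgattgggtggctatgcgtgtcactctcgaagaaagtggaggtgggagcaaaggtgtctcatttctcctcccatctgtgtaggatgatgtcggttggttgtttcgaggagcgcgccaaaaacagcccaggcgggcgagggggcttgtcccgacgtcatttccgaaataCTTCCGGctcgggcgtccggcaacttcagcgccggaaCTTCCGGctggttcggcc
Atp5c1 (chr2:10080383-10080682, minus strand): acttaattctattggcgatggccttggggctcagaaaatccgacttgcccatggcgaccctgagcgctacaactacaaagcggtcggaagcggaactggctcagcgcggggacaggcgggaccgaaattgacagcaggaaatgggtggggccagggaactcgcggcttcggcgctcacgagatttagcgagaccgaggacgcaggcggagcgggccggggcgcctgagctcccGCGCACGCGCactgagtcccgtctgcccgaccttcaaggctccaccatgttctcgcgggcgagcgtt
The start-site peak covered between 146 and 201 of the 300 bases in these 9 promoters. Uqcrc1 held both of its NRF1 matches just after the start site, at positions 6 and 31, and Atp5c1 held 1 at position -17. Atp5c1 has 2 listed start sites. The printed promoter belongs to the one at 10080432, and that of the other, at 10080510, held no match. Ndufa9 held a YY1 match at position 30. Ndufs8, Ndufb6, Sdhb and Cox8a held the ETS core, which lay at position -5 and again at 33 in Cox8a and at position 16 in Ndufs8. Cycs held a CREB and ATF match at position -169, and Ndufv3 held only SP1 and KLF matches.

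Among the 69 tested peaks, 5 rose in paused cells, none fell and 64 were not called. They lay at Ndufv3, Ndufb9, Ndufa9 and Ndufb6 of complex I and at Uqcrc1 of complex III. The share called higher was 7.25%, against 11.0% of all tested peaks and 10.4% of the 16169 tested peaks at ends of protein-coding genes. The share called lower was 0, against 2.91% of all tested peaks and 1.25% of gene-end peaks. At an unadjusted p under 0.05 there were 21, all higher, on a scaling where 78.2% of gene-end peaks had a change above 0. The share of gene-end peaks under this cut is not given, here or for the groups below, so these counts have no background. edgeR called 7 member peaks higher and 0 lower with the deposited factors, and 3 and 0 with TMM scaling, and DESeq2 called 2 and 0. The shares called higher were 10.1% of members and 13.3% of gene-end peaks with the deposited factors, 4.35% and 3.82% with edgeR and TMM, and 2.90% and 1.24% with DESeq2, so that the order of members and other gene ends differed between these fits. Leaving out paused replicate 1 gave 8 calls (11.6%, against 10.0% of gene-end peaks). Leaving out paused replicate 2 or paused replicate 4 gave 3 (4.35%, against 7.99% and 5.05% of gene-end peaks). By the authors' deposited table, member peaks with an FDR under 0.05 numbered 7, all higher, and 9.69% of all tested peaks were higher by that rule.

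The log2 change was above 0 at 55 of the 69 peaks, or at 29 once a loess curve on peak strength was taken out of every sample. Their median was 0.16 (range -0.69 to 0.97), beside 0.10 over all tested peaks and 0.17 over gene-end peaks, of which 78.2% were above 0. With TMM scaling the median over all tested peaks was -0.01 and that of the members 0.05, and with the loess correction these were -0.01 and -0.02. With TMM scaling in limma or edgeR, 46 of the 69 member peaks were above 0, and 45 with DESeq2. The size of the member median thus depended on the scaling, and its sign turned only with the loess correction. Against gene-end peaks in the same of 10 bins of mean strength, the median difference of the members was -0.01, and 33 of the 69 lay above the median of their bin. Gene-end peaks of like strength were called higher in 10.5% and lower in 0.959%. For 13 member peaks (18.8%) every paused value lay above every control value, against 14.7% of gene-end peaks (13.0% of all tested peaks) and 15.6% of those of like strength. For 0 member peaks every paused value lay below every control value, against 1.96% of gene-end peaks. The members thus had counts and medians near those of other gene ends, and no test of the set was made.

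**Figure D1:**
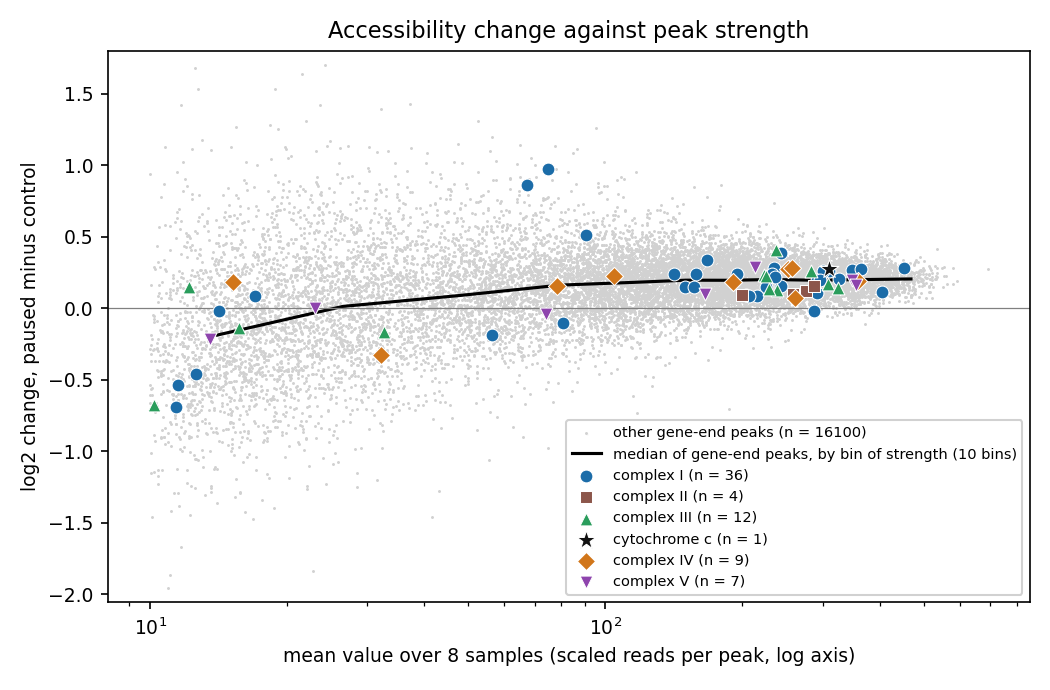
Log2 change, paused minus control, of each tested gene-end peak (vertical axis) against its mean value over 8 samples (horizontal log axis, scaled reads per peak). Coloured marks are the 69 member peaks by complex, grey points the other gene-end peaks, and the line joins the medians of 10 bins of strength: with the deposited scaling the members lie on both sides of the line, at a median distance of -0.01, while a loess correction turns their median change from 0.16 to -0.02.

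Summed over all member peaks, the value per sample was 11673, 12539, 12735 and 12813 in the control samples and 13401, 13953, 15085 and 14561 in the paused samples. All 4 paused sums lay above all 4 control sums. The sums over all 134407 peaks did not overlap either, at 7315541 to 7653989 in control and 8062921 to 8640948 in paused samples. The means were 12440.1 ± 524 and 14249.9 ± 731 (SD, n = 4), a difference of 14.5% on the deposited scaling. The same sum was 13.7% higher in paused samples over gene-end peaks and 11.7% higher over all tested peaks.

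**Figure D2:**
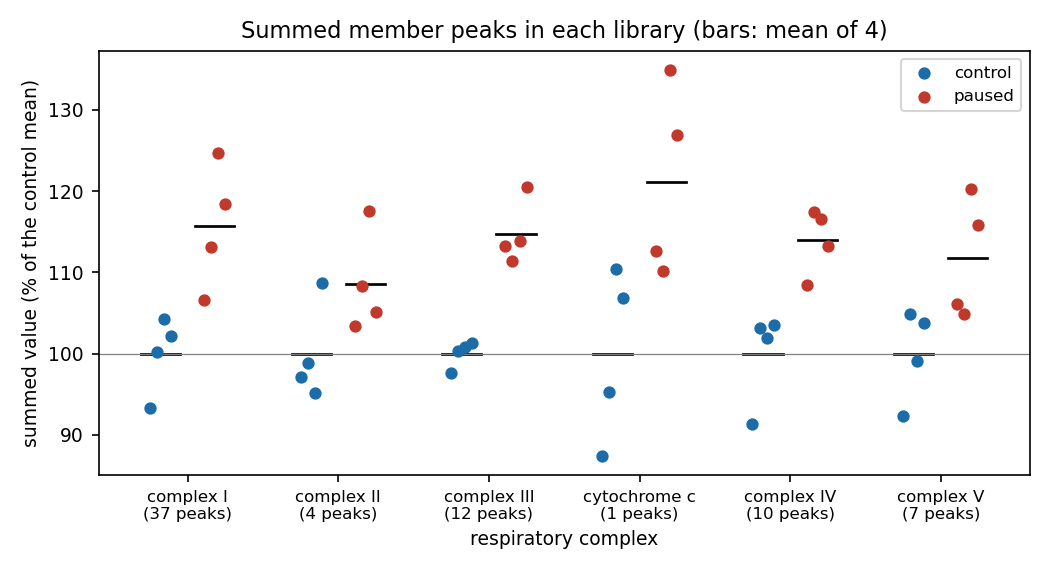
Sum of the values of the member peaks of each complex in each library, as a percent of the mean of the 4 control libraries (vertical axis), with points for the 4 control and 4 paused libraries and bars for the group means. On the deposited scaling the paused points lie above the control points for complexes I, III, IV and V, as do the sums over all peaks. In complex V this is only by 1181.4 against 1181.2 scaled reads, and the points of complex II and cytochrome c overlap.

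Complex I is the entry point for electrons from NADH. Its matrix arm holds the flavin, the iron-sulphur clusters and the ubiquinone site. Of the 16 matrix arm genes 13 had a peak. Of their 17 tested peaks 2 rose (11.8%, against 10.4% of gene-end peaks of like strength), with a median change of 0.15. The median difference from gene-end peaks of like strength was -0.05. The loess correction brought the median of complex I as a whole from 0.20 to 0.00.

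Ndufv3 encodes a small accessory subunit of the NADH-oxidising tip. Its called peak lay 616 bp beyond the far end of the gene (GRCm38, chr17:31531842-31532042) and outside it, away from the start site whose promoter is printed above. The values were 48.1, 60.9, 35.6 and 58.8 in control and 99.2, 112, 83.8 and 101 in paused replicates 1 to 4. Every paused sample was higher than every control sample. The change was 0.97 ± 0.16 (SE), with an adjusted p of 6.94e-05, and this peak was called under each of the 17 alternatives fitted. It rested on 21 to 139 reads per sample. The peak at the start of Ndufv3, 33 bp upstream and also close to an end of Wdr4, was at 282 in control and 338 in paused samples. It was not called (0.26 ± 0.10 SE, adjusted p = 0.082), although its groups did not overlap.

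Ndufa9 encodes an accessory subunit near the ubiquinone site. Its peak was centred 4 bp inside the gene at its start (chr6:126849040-126849240). The values were 80.2, 63.3, 84.7 and 70.5 in control and 93.4, 119.9, 97.8 and 116 in paused samples. The groups did not overlap, and the change was 0.51 ± 0.14 (SE), adjusted p = 0.012. The call was lost with TMM scaling in limma, DESeq2 and the loess correction, and without paused replicate 2 or paused replicate 4, where the adjusted p reached 0.052.

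Ndufs8, an iron-sulphur subunit of the core, had the strongest peak of all members, 138 bp upstream of its start and within 1 kb of an end of Aldh3b1 (chr19:3912812-3913012). The values were 359.5, 423, 467 and 385 in control and 503, 465, 538 and 478 in paused samples. Paused replicate 2 lay just under control replicate 3, and the other 3 paused values were above all controls. The change of 0.28 ± 0.10 (SE) was not called (adjusted p = 0.054). It was called by edgeR with the deposited factors (adjusted p = 0.046) and without control replicate 2 (0.049) or control replicate 3 (0.036). Ndufs3, a core subunit of the same arm, had the lowest change of complex I, at a weak peak 706 bp beyond its far end (chr2:90893821-90894021). The values there were 11.8, 9.55, 18.6 and 16.2 in control and 5.77, 4.73, 14.0 and 10.5 in paused samples, from 3 to 34 reads, with overlapping groups. The change was -0.69 ± 0.37 (SE), adjusted p = 0.219. The peak at the start of Ndufs3, shared with the start of Kbtbd4, was at 197 in control and 210.1 in paused samples.

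The membrane arm of complex I holds the proton-pumping part, whose core is encoded in mitochondrial DNA. Its nuclear accessory subunits numbered 15 genes, 14 of them with a peak. Of their 19 tested peaks 2 rose (10.5%, against 11.3% of gene-end peaks of like strength) and none fell. The median change was 0.21, with a median difference of 0.02 from gene-end peaks of like strength.

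Ndufb9 encodes one of these accessory subunits. No start site is listed for this gene. Its called peak lay inside the gene, 673 bp from the end that is away from its stronger peak (chr15:58938743-58938943). The values were 43.2, 34.6, 45.7 and 69.1 in control and 87.7, 71.0, 97.8 and 87.9 in paused samples. The groups did not overlap, with paused replicate 2 just above control replicate 4. The change was 0.86 ± 0.17 (SE), adjusted p = 0.000624, and it was called under all 17 alternatives fitted. The stronger peak of Ndufb9, 55 bp outside the span and shared with an end of Tatdn1, was at 199.7 in control and 213 in paused samples and was not called (0.09 ± 0.12 SE, adjusted p = 0.671).

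Ndufb6, another accessory subunit of this arm, had a called peak 47 bp upstream of its start (chr4:40279368-40279568). The values were 182, 202, 232 and 220.4 in control and 216, 281, 363 and 249.5 in paused samples. The groups overlapped, since paused replicate 1 lay under 2 of the control values, and paused replicate 3 was the highest. The change was 0.39 ± 0.12 (SE), adjusted p = 0.033. The call was lost in 8 of 17 alternatives: with DESeq2, with either TMM fit, with the loess correction, and without control replicate 1, control replicate 2, paused replicate 2 or paused replicate 3, with an adjusted p of up to 0.182 over the replicates left out. A peak at the other end of Ndufb6, at the shared start of Smim27 and Topors, had 303 in control and 349 in paused samples, with groups that did not overlap and no call (0.21 ± 0.10 SE, adjusted p = 0.174).

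**Figure D3:**
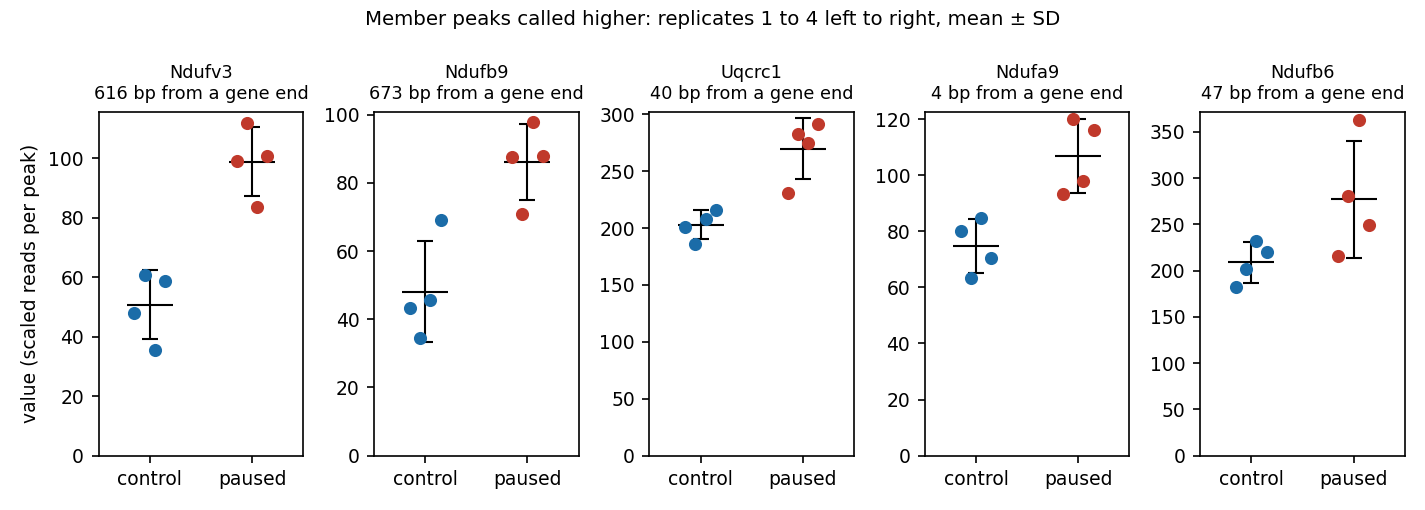
Values (scaled reads) of the 5 called member peaks in each of the 4 control and 4 paused samples, with the group mean and SD. The groups do not overlap at Ndufv3, Ndufb9, Uqcrc1 and Ndufa9, while at Ndufb6 paused replicate 1 lies within the control range.

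Complex II, the enzyme shared by the respiratory chain and the citric acid cycle, has only nuclear-encoded subunits. All 4 genes had 1 peak, and the changes ran from 0.09 to 0.16 with a median of 0.11. None was called by limma-trend, edgeR or DESeq2, and none had an unadjusted p under 0.05. Gene-end peaks of like strength were called higher by limma-trend in 12.9%. Each of the 4 lay under the median of gene-end peaks of its own strength, by a median of 0.09. The median of complex II was 0.01 or less with TMM or DESeq2 scaling and -0.10 after the loess correction.

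Sdhb, the iron-sulphur subunit, had the strongest peak and the highest change of complex II, 9 bp upstream of its start (chr4:140961162-140961362). The values were 287, 285, 251 and 266 in control and 299.9, 295, 323 and 296 in paused samples. The groups did not overlap, but the change of 0.16 ± 0.10 (SE) was not called (adjusted p = 0.321) and became -0.05 after the loess correction. Sdhc, a membrane anchor, had the lowest change, at a peak 48 bp inside the gene. The values were 192, 176, 199.8 and 203 in control and 190.3, 221, 216 and 196 in paused samples, and the groups overlapped. The change was 0.09 ± 0.11 (SE), adjusted p = 0.620, and it was below 0 with TMM, DESeq2 and loess scaling. The peak of the flavoprotein gene Sdha, also within 1 kb of a start of Ccdc127, stood at 264 in control and 287 in paused samples. That of the anchor gene Sdhd, also near a start of Timm8b, stood at 249.7 and 266.

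Complex III carries electrons from ubiquinol to cytochrome c. All 8 genes had a peak. Of the 12 tested peaks 1 rose (8.33%, against 8.95% of gene-end peaks of like strength) and none fell. The median change was 0.15, or -0.05 after the loess correction. The sum over these peaks was 1942, 1997, 2007 and 2016 in control and 2255, 2218, 2265 and 2399 in paused samples. Every control sum lay under every paused sum, as over all peaks, and the means differed by 14.8%, against 13.7% over gene-end peaks.

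Uqcrc1 encodes core protein 1, a large matrix-facing subunit. Its peak was 40 bp upstream of the start (chr9:108936508-108936708), and it covered 190 bases of the printed promoter with its pair of NRF1 matches. The values were 201, 186, 208 and 216 in control and 231, 282, 275 and 292 in paused samples. All paused values were above all control values. The change was 0.41 ± 0.11 (SE), adjusted p = 0.011. The call was lost with DESeq2, either TMM fit, the loess correction and without paused replicate 4 (adjusted p = 0.056). The second large subunit, Uqcrc2, was at 257 and 308 with groups that did not overlap and no call (0.26 ± 0.10 SE, adjusted p = 0.083).

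The strongest peak of complex III lay 314 bp upstream of Uqcr10, a small subunit, and within 1 kb of the start of Zmat5 (chr11:4704558-4704758). The values were 309, 318, 289.6 and 310.1 in control and 339, 320.2, 292 and 415 in paused samples, with overlapping groups and paused replicate 4 the highest. The change was 0.14 ± 0.11 (SE), adjusted p = 0.396, and -0.06 after the loess correction. The lowest change was at Uqcrq, another small subunit. It was at a weak peak inside the gene, 555 bp from the end that is away from its stronger peak (chr11:53428377-53428577). The values were 10.4, 17.9, 15.2 and 7.35 in control and 6.92, 12.6, 6.21 and 4.69 in paused samples, from 4 to 30 reads. The groups overlapped, and the change was -0.68 ± 0.39 (SE), adjusted p = 0.251. The stronger Uqcrq peak, close to an end of Gdf9, was at 290.04 and 327. The Rieske iron-sulphur protein gene Uqcrfs1 was at 228 and 248 and the cytochrome c1 gene Cyc1 at 218 and 240.1, neither called.

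Cytochrome c carries electrons between complexes III and IV, and its somatic form is encoded by Cycs. Its 1 peak was 72 bp upstream of the start (chr6:50566541-50566741) and also within 1 kb of a listed start of 5430402O13Rik. The values were 245, 268, 309.9 and 299.8 in control and 316, 309, 379 and 356 in paused samples. Paused replicate 2 was just under control replicate 3, and the other 3 paused values exceeded every control. The change was 0.28 ± 0.11 (SE) and was not called (adjusted p = 0.079). It was 0.08 above the median of gene-end peaks of its strength, and 0.07 after the loess correction.

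Complex IV reduces oxygen. Of its 10 genes 8 had a peak. None of the 9 tested peaks was called, against 10.5% called higher among gene-end peaks of like strength, and 2 had an unadjusted p under 0.05. edgeR, with either scaling, and DESeq2 called 0 of the 9 as well. The median change was 0.18, or -0.02 after the loess correction. No peak had groups that did not overlap, while every paused value lay above every control value in 15.4% of gene-end peaks of like strength.

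Cox8a, a small subunit, had the strongest peak of complex IV, 99 bp upstream of its start (chr19:7217615-7217815). The values were 319, 317, 344 and 363 in control and 358, 366, 396 and 415 in paused samples. Only paused replicate 1 lay within the control range. The change was 0.19 ± 0.10 (SE), adjusted p = 0.205, and -0.02 after the loess correction. Cox7c, another small subunit, had the highest change, 41 bp upstream of its start (chr13:86046736-86046936). The values were 192, 217, 259 and 259 in control and 288, 238, 349 and 257 in paused samples, and paused replicates 2 and 4 lay within the control range. The change was 0.28 ± 0.12 (SE), adjusted p = 0.109.

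The lowest change of complex IV was at Cox5a, a matrix-facing subunit, at a peak 10 bp outside the gene span (chr9:57517218-57517418). This end of the span lay upstream of the listed start site, and the peak was centred at -3914 bp from that site. The values were 41.1, 28.7, 30.5 and 39.7 in control and 30.0, 36.3, 14.0 and 36.3 in paused samples, with overlapping groups. The change was -0.33 ± 0.24 (SE), adjusted p = 0.378. The peak of Ndufa4, a subunit long counted with complex I and now with complex IV, was shared with the start of Phf14 and stood at 254 and 268.

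Complex V is the ATP synthase, and the 5 genes here encode its catalytic head and stalks. Of these 4 had a peak. None of the 7 tested peaks was called, against 9.59% called higher among gene-end peaks of like strength, and 1 had an unadjusted p under 0.05. edgeR, with either scaling, and DESeq2 also called 0 of the 7. The median change was 0.10, but it was -0.05 with DESeq2, -0.06 with edgeR and TMM, -0.01 with limma and TMM, and -0.05 after the loess correction. Leaving out control replicate 3 gave 0.02 and leaving out paused replicate 2 gave 0.19. Only 1 of the 7 lay above the median of gene-end peaks of its strength.

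Atp5c1 encodes the rotating central shaft. Its peak, 16 bp inside the gene and shared with the start of Kin (chr2:10080394-10080594), was the strongest of complex V. The values were 281, 365, 356 and 339 in control and 352, 350.2, 439 and 359.7 in paused samples. Paused replicate 3 stood apart from the other 3 paused values, which lay within the control range. The change was 0.16 ± 0.11 (SE), adjusted p = 0.330, and -0.05 after the loess correction.

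Atp5o encodes the subunit that ties the head to the outer stalk, and it had both the highest and the lowest change of complex V. At its start, 2 bp inside the gene (chr16:91931528-91931728), the values were 179, 219, 176 and 195 in control and 206, 233, 262 and 238 in paused samples. Only paused replicate 1 lay within the control range, and the change was 0.29 ± 0.11 (SE), adjusted p = 0.082. It was called without control replicate 2 (adjusted p = 0.043) or paused replicate 1 (0.04998). At its far end, 119 bp outside (chr16:91925004-91925204), the values were 16.3, 10.8, 16.9 and 14.7 in control and 13.8, 14.2, 12.4 and 9.37 in paused samples, with overlapping groups. That change was -0.22 ± 0.31 (SE), adjusted p = 0.690. The catalytic beta subunit gene Atp5b stood at 325 and 371 and the alpha subunit gene Atp5a1 at 162 and 169 at the stronger of its peaks, neither called.

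**Figure D4:**
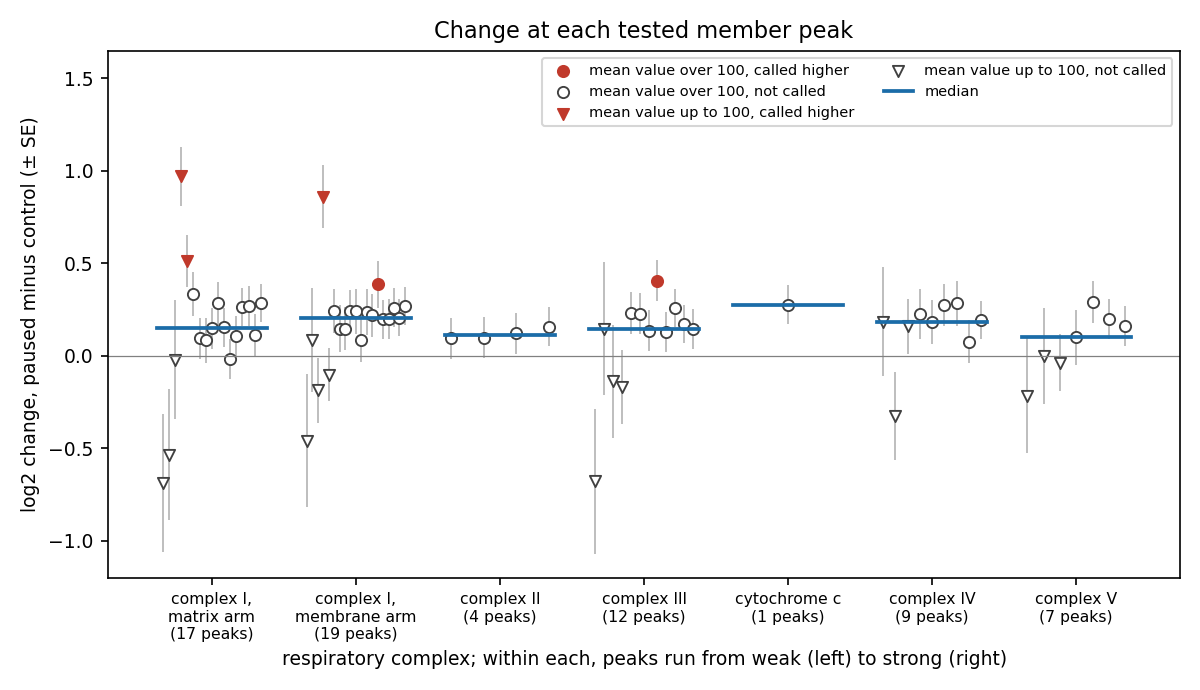
Log2 change, paused minus control, with its SE for every tested member peak, by complex and, within complex I, by arm, from weak peaks on the left to strong ones on the right (deposited scaling). Filled marks are called peaks, triangles have a mean value up to 100, and lines are medians: 0.15 and 0.21 for the arms of complex I, 0.11 for II, 0.15 for III, 0.28 for the single cytochrome c peak, 0.18 for IV and 0.10 for V, of which those of II, III, IV and V turn below 0 after a loess correction.

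The position of a peak on its gene went with its strength. The 42 peaks at the start side had a median mean value of 243 and a median change of 0.21, and 40 of them were above 0. The exceptions were Ndufab1, the mitochondrial acyl carrier protein, at 289.9 and 285, and Ndufa13, at 60.1 and 52.6. The 13 tested peaks over 2 kb from the listed start had a median mean value of 16.9 and a median change of -0.10, and 4 of them were above 0. Among the 13 were the Cox5a peak, upstream of its listed start, and the Ndufb6 peak at the starts of Smim27 and Topors. Gene-end peaks of like strength had medians of 0.20 and -0.19, so that both groups lay near the level of their strength. Called peaks numbered 3 of the 42 (7.14%, against 12.3% of gene-end peaks of like strength) and 1 of the 13 (7.69%, against 4.74%). At genes with no listed start site they numbered 1 of 14 (7.14%, against 10.4%). Of the 49 member peaks with a mean value over 100, 48 had a change above 0 with a median of 0.20, and the median of all gene-end peaks over 100 was 0.20 as well. Calls numbered 2 of these 49 (4.08%, Uqcrc1 and Ndufb6), against 12.7% of gene-end peaks over 100. Of the 20 up to 100, 7 were above 0 and the median was -0.07. The median of all gene-end peaks up to 100 was 0.05, and the bin medians matched to these 20 by strength had a median of -0.09. Calls numbered 3 of these 20 (15.0%), against 5.68% of gene-end peaks of like strength and 7.10% of all gene-end peaks up to 100.

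The arrangement of the member gene ends, which the rule did not use, is described without a test. A peak was found at 88.1% of member genes (52 of 59), against 66.4% of 21887 protein-coding genes. A peak lay within 1 kb of 48 of the 52 listed member start sites (92.3%), against 64.0% of all 21263 listed start sites. The nearest peak was centred within 100 bp of the start site in 81.3% of those 48, against 50.2% of all, and upstream of it in 75.0% against 61.0%. Its median mean value was 248, against 184. Of the 69 tested peaks, 26 (37.7%) lay within 1 kb of an end of another protein-coding gene, against 11.7% of gene-end peaks, and their signal cannot be assigned to 1 of the genes. By limma-trend 0 of these 26 were called, against 11.0% called higher among gene-end peaks of like strength. Of the 26, 7 had an unadjusted p under 0.05, the median change was 0.15, and edgeR with the deposited factors called 1 (Ndufs8). All 5 called peaks were among the 43 that were not shared (11.6%, against 10.2% of gene-end peaks of like strength). The median of these 43 was 0.18, and the difference between the shared and unshared peaks was not tested.

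No peak within 1 kb of an end was found at 7 genes: Ndufs1, Ndufa6, Ndufa7, Ndufb10, Cox4i1, Cox7a2 and Atp5d. For Cox7a2 and Atp5d the listed start site lies 4612 bp and at least 3513 bp inside the gene span, so that the rule leaves their start-site peaks out. The peak at the Cox7a2 start was at 257 ± 34.4 against 302 ± 29.9 (mean ± SD of the 4 control and the 4 paused samples; change 0.24, adjusted p = 0.148). The peak at the Atp5d start was at 284 ± 10.8 and 302 ± 24.9 (change 0.08, adjusted p = 0.630). The start of Cox5a, 3904 bp inside its span, likewise had a peak outside the rule, at 229 ± 22.8 and 241 ± 24.8 (change 0.07, adjusted p = 0.705). None of the 3 was called. No peak was within 1 kb of the listed starts of Ndufa6, Ndufa7 and Ndufb10, whose nearest peaks were 17420, 6773 and 1752 bp away.

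The members nearest to the limit of 1 kb were Atp5c1 at 849 bp (23.1 in control and 22.8 in paused samples), Ndufv1 at 853 bp (14.0 and 9.07) and Uqcrb at 858 bp (16.1 and 15.3). Just outside it were Ndufa7 at 1031 bp (15.4 and 10.7), Uqcr10 at 1057 bp (21.3 and 19.4) and Cox4i1 at 1123 bp (84.4 and 80.5). The 2 untested member peaks were at the far ends of Ndufb7 (7.94 and 10.6) and Cox8a (9.51 and 4.76).

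Start sites of the members were searched for the 6 motifs in the window of 250 bases before to 50 after, for 52 listed promoters of 48 genes. NRF1, a regulator of nuclear genes for respiration, had its motif in 14 of the 52 (26.9%), against 6.38% of all 21263 promoters and 9.37% of those with a peak. Ndufa5 has 2 listed promoters that overlap, and both are counted here and for GGGCGG. YY1 had AAGATGGC in 6 (11.5%), against 3.05% and 3.94%, and the CREB and ATF motif TGACGTCA was in 5 (9.62%), against 2.23% and 3.05%. The ESRRA motif AAGGTCA was in 4 (7.69%), against 4.08% and 2.97%. The ETS core CCGGAAG was in 10 (19.2%), against 11.6% and 16.1%. GGGCGG was in 22 (42.3%), against 46.2% and 63.0%. The median GC content was 59.0% in member promoters, 56.3% in all and 61.0% in those with a peak. Matches of 2 motifs overlapped in 1 member promoter. Ndufb4 and Sdha each held 3 NRF1 matches, and Uqcrc1 and Cox6a1 each held 2.

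Start-side peaks were also split by the motifs of their promoters. The 12 with an NRF1 match had a median change of 0.17 and 1 call (Uqcrc1), and the 30 without had 0.23 and 2 calls. With the ETS core the median was 0.20 (n = 10) and without it 0.22 (n = 32). With YY1 it was 0.25 (n = 6), with 1 call at Ndufa9, and without 0.20 (n = 36). With the CREB and ATF motif it was 0.20 (n = 5) and with the ESRRA motif 0.15 (n = 4). The medians lay between 0.15 and 0.25 on the deposited scaling and were not tested against each other.

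**Figure D5:**
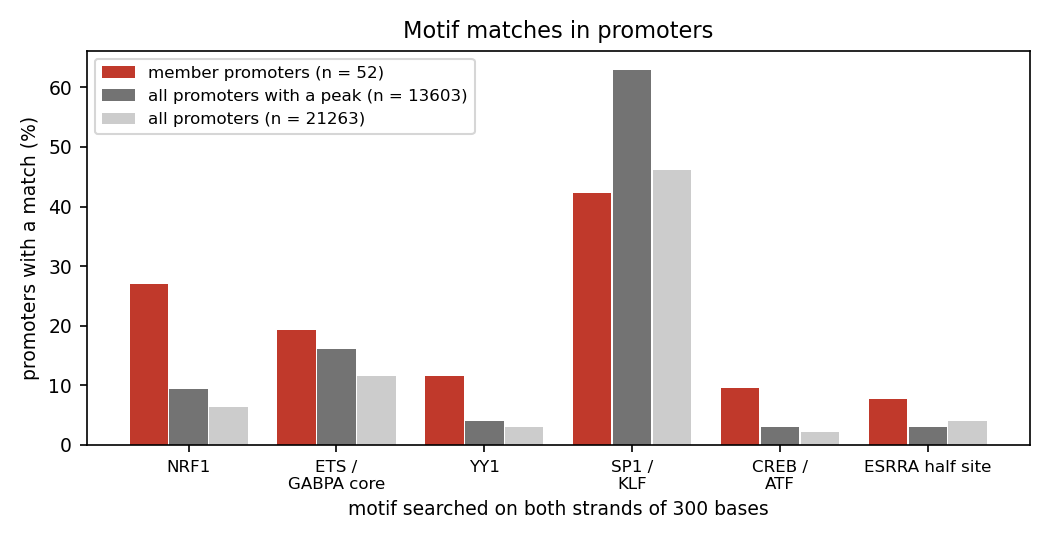
Share of promoters in percent (vertical bars from 0) holding each of 6 motifs, for the 52 member promoters, all 21263 promoters and the 13603 with a peak within 1 kb of the start site. NRF1 is in 26.9% of member promoters against 6.38% and 9.37%, and the SP1 and KLF motif in 42.3% against 46.2% and 63.0%.

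Other mitochondrial gene lists, chosen with earlier results of these data known, were described in the same way. A list of 23 other respiratory genes had 29 tested peaks, and a median change of 0.12. Besides subunits it held Uqcc3, a complex III assembly factor, and Atpif1, the inhibitor of the ATP synthase. With limma-trend 0 of the 29 were called and 6 had an unadjusted p under 0.05. edgeR called 1 with the deposited factors and 0 with TMM, and DESeq2 called 0. Assembly factors had 52, of which 2 rose and 1 fell, with a median of 0.16. Both rises were at Cox14, which encodes a factor for complex IV assembly, with values of 42.1 ± 9.38 against 62.9 ± 15.2 and 267 ± 41.1 against 336 ± 35.0 (SD, n = 4). The fall was at Timmdc1, a complex I assembly factor, from 61.0 ± 5.19 to 43.5 ± 7.25. Regulators of mitochondrial biogenesis had 22, of which 2 rose: Esrra, an orphan nuclear receptor, from 320.2 ± 23.1 to 401 ± 14.6 (adjusted p = 0.024), and Tfb1m, a mitochondrial rRNA methyltransferase, from 383 ± 35.0 to 468 ± 30.5 (adjusted p = 0.048).

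Citric acid cycle and pyruvate dehydrogenase genes had 20 tested peaks with 1 call, a rise at Dlat, the acetyltransferase subunit, from 214 ± 34.6 to 271 ± 14.3. Mitochondrial ribosome genes had 92, with 7 rises and 1 fall, a median of 0.18, and 2 peaks shared with the members. The rises were at Mrpl2 (2 peaks), Mrpl23, Mrpl28, Mrpl33, Mrpl58 and Mrps12 and the fall at Mrpl43. All 5 lists had shares called higher between 0 and 9.09%, at or under the 10.4% of gene-end peaks, and medians between 0.12 and 0.18 on the deposited scaling. With edgeR and TMM, 1 peak of the mitochondrial ribosome list and 0 of the other 4 lists were called higher, while 2 of the mitochondrial ribosome list and 1 of the assembly factors were called lower, and DESeq2 called 0 higher and 0 lower in all 5.

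Peaks at the ends of cell type marker genes were also described, where 66.4% of all protein-coding genes had a peak. The presence of a peak did not set the stem cell markers apart, so that it does not test the cell label. Of 10 embryonic stem cell markers 7 had a peak within 1 kb (not Pou5f1, Dppa5a or Tdgf1), and their summed value was 1168 to 1275 in control and 1354 to 1511 in paused samples. For fibroblasts 7 of 8 had a peak (485 to 589 and 572 to 630.3), for primitive endoderm 3 of 6 (237 to 283 and 261 to 303; none at Gata4, Foxa2 or Pdgfra), and for trophoblast 5 of 6 (303 to 347 and 352 to 432). The ranges of paused and control sums did not overlap for the stem cell and trophoblast markers and overlapped for the fibroblast and primitive endoderm markers. Over all peaks, too, every paused sum lay above every control sum on the deposited scaling. By limma-trend 2 stem cell marker peaks (both at Zfp42) and 2 of the 8 trophoblast marker peaks (Tfap2c and Gata3) rose. The other 6 trophoblast marker peaks, among them a second peak of each of these genes, had changes from -0.52 to 0.01, and the median of the 8 was -0.07. edgeR with the deposited factors called 4 stem cell and 2 trophoblast marker peaks higher, and with TMM 1 and 2. These 2 fits called 13.3% and 3.82% of gene-end peaks higher. DESeq2 called 0 of the stem cell and 0 of the trophoblast marker peaks. The part of these markers in the results on respiratory genes was not tested.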

How the data were processed

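Chromatin accessibility was measured by ATAC-seq in 4 control and 4 paused libraries of E14 cells, grouped by the sample titles. Per the submitters' processing notes, FastQC, Trim Galore, Bowtie2 2.4.1, MACS3 3.0.3, DiffBind 3.16.0 and build mm10 were used, without their settings. Per the file headers, the authors deposited 1 table of 134407 peaks of 201 bp, each with 8 signal values, the log2 mean of each group, the log2 fold, and a p-value with its FDR. The deposited signal values are reads divided by 1 factor per sample: between 99.8% and 100% of them were whole multiples of the value of 1 read, within 0.0051. How the factors were made is not given in the sources used here. Per-sample columns left unused numbered 0.

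limma 3.58.1 (R 4.3.3) was fitted with a trend to log2(value + 1), which understates changes of weak peaks, over 127402 peaks, those whose mean value reached 10. Benjamini-Hochberg adjusted p-values under 0.05 were called. Alternatives were edgeR 4.0.16 and DESeq2 1.42.0 on the recovered reads, TMM and loess (span 0.3) scaling, a pseudocount of 0.1, no filter or a minimum of 50, a replicate block, each sample left out, distances of 500 bp and 2 kb, and 1 peak per gene. The fits were tested on simulated data. A value from 3 reads, the upper limit that a count of 0 allows, was 1.04 to 5.08, which covers counting error only.

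Gene spans and promoters came from RefSeq tables of GRCm38.p6, and all 59 symbols matched. The members and all lists were chosen with earlier results of these data known. Peaks named were those called, the strongest, highest and lowest changed of each complex, and those nearest the distance limit; other members are given by their means only and were chosen after their values were seen. Shares of genes with a peak, start sites and motifs are descriptions without a test.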

Additional observations from a re-analysis of the deposited data

Results flagged for a closer look

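Of 50 groups of 4 samples examined for a sample far from the other 3, 3 exceeded Dixon's 95% critical value, as about 1 in 20 groups would by chance. The summed value of complex IV in control replicate 1 was 1330.23, the lowest, with 1485 to 1509 in the other 3 control samples. The reads in peaks of control replicate 1 were 21161767, the highest, against 4434037 to 6262445 in the other 3. At the Atp5c1 peak 16 bp from a gene end, paused replicate 3 had a value of 439.1, the highest, against 350.2 to 359.7 in the other 3.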

How the results depend on the processing

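The peaks at Ndufv3 and Ndufb9 were called under all 17 alternatives fitted to them, and the median difference of the members from gene-end peaks of like strength stayed between -0.02 and 0.01 over 20 alternatives. Member peaks called higher numbered 2 with DESeq2 (2.90%, against 1.24% of gene-end peaks), limma with TMM (2.90% against 2.90%) and the loess correction (2.90% against 1.73%). With 1 peak per gene they numbered 2 of 52 (3.85%, against 12.3% of gene-end peaks of like strength). They numbered 3 with edgeR and TMM (4.35% against 3.82%) and 3 of 57 within 500 bp of a gene end. A replicate block gave 17 (24.6%, against 17.3% of gene-end peaks and 13.6% of all peaks). Leaving out a replicate gave 3 to 8 (4.35% to 11.6%, against 5.05% to 12.3% of gene-end peaks). Within 2 kb 7 of 92 were called higher, with Ndufb5 and Ndufv3 added, and 1 lower (Cox4i1). The shares of gene-end peaks at these distances are not given. Among the named peaks, 4 that were not called became so: Ndufs8, Cycs, Cox7c and Atp5o (the start-side peak) with the block, Ndufs8 also with edgeR and the deposited factors or without control replicate 2 or 3, and Atp5o also without control replicate 2 or paused replicate 1. With DESeq2, edgeR with TMM, limma with TMM and the loess correction, in that order, the median change was 0.057, 0.063, 0.051 and -0.019 over all members, 0.10, 0.10, 0.088 and 0.0040 for complex I, 0.0062, 0.0075, 0.0011 and -0.098 for complex II, 0.042, 0.042, 0.041 and -0.046 for complex III, 0.080, 0.088, 0.081 and -0.017 for complex IV, and -0.052, -0.061, -0.0078 and -0.047 for complex V. The loess correction gave 0.068 for cytochrome c, a minimum mean of 50 gave 0.20 for complex III, and leaving out a replicate gave 0.023 to 0.19 for complex V. After the loess correction the changes were -0.050 at Sdhb, -0.11 at Sdhc, -0.065 at Uqcr10, -0.017 at Cox8a and -0.047 at Atp5c1, and at Sdhc the value was -0.015 with DESeq2 and with both TMM fits. Over all peaks, 3902 were called higher and 1892 lower with DESeq2, 9084 and 7058 with edgeR and TMM (13958 and 3702 as reported), 7352 higher with limma and TMM, 6497 higher with the loess correction, 751 lower with a minimum mean of 50, and 8980 to 12689 higher and 2314 to 3871 lower with a replicate left out. The causes of these differences were not tested. Same-numbered samples correlated at 0.08, 0.04, 0.13 and 0.04 in their deviations from the group means. Control replicates 1, 3 and 4 each correlated best with the paused sample of their own number. Control replicate 2 correlated better with paused replicate 1 (0.07) than with paused replicate 2. The labels state no pairing, and whether same-numbered samples belong together was not tested. The replicate block gave 17371 calls higher over all peaks. Weak far-end peaks rested on as few as 2 reads in a sample, which limits what depth can show there.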
